A study of Mus musculus with 3 samples.

Results

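The 33 genes described here make, carry or control the smooth-muscle type contraction apparatus of the mammary myoepithelium. They were selected by gene symbol, from a list of 33 names, among the 19050 genes of the count tables of freshly sorted mouse mammary epithelium. The study's tables used here come from untreated female FVB/NJ mice of 10 weeks, with no transgene or agent named. The number 4 glands of 4 mice were pooled and digested with collagenase and trypsin, and live cells negative for endothelial and blood markers were sorted as epithelium with CD49f, the alpha6 integrin, and EpCAM. There is 1 group with 3 libraries, numbered 1 to 3, made with droplet 3' chemistry version 2, so each UMI (unique molecular identifier) stands for 1 captured transcript end. The labels do not say whether the libraries came from separate pools of mice, so the p-values below measure only the spread between these 3 libraries.

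Myoepithelial cells are the outer, basal cells of mammary ducts and alveoli. They are epithelial cells that hold keratins together with the actin and myosin of smooth muscle, and they squeeze milk towards the nipple when oxytocin from the pituitary reaches its receptor on them. In smooth-muscle type cells, calcium and calmodulin activate myosin light chain kinase, which phosphorylates the regulatory light chain of myosin so that myosin pulls on actin. Caldesmon, calponin and tropomyosin lie along the thin filament and tune that pull, dense bodies and adhesion plaques anchor the filaments, and serum response factor (SRF) with myocardin or its relatives drives transcription of many of these genes by binding a DNA element called the CArG box.

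The promoter sequences are shown first. The genes were chosen by name and not by promoter letters. Many are known targets of SRF, and Srf is on the list. A higher share of CArG boxes than over all genes could thus be foreseen, and it is no independent support. A window of 250 bases before to 50 bases after the transcript start was found in RefSeq (GRCm38.p6) for 27 of the 33 genes, with 32 windows in all. Actg2, Tagln, Myh11, Tgfb1i1, Myocd and Mir143hg had no window. The box searched was CC, then 6 letters each A or T, then GG, on both strands. It was found in 5 of the 27 genes (18.5%) and in 488 of 27025 genes with a window (1.81%). When 1 letter was allowed to differ, 13 of 27 genes (48.1%) and 6419 of all (23.8%) held a match. The 5 genes are those of Myl9, the regulatory myosin light chain, Cnn2, a calponin, Myl6, the essential myosin light chain, Vcl, the adhesion plaque protein vinculin, and Srf itself, which held a pair. The stretch around each box is printed 5′ to 3′ on the strand of the gene, with the box in capitals.
Myl9: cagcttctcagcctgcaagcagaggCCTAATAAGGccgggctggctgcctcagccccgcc
Cnn2: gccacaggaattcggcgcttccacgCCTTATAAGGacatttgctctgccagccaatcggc
Myl6: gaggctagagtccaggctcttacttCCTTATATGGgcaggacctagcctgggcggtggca
Vcl: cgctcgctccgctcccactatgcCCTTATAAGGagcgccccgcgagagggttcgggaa
Srf: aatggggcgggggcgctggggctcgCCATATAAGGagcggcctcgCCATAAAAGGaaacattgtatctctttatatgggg
These lie at chr2:156775278-156775337 on the plus strand, chr10:79988519-79988578 on the plus strand, chr10:128493025-128493084 on the minus strand, chr14:20929148-20929205 on the plus strand and chr17:46556190-46556269 on the minus strand. The boxes begin 161, 56, 50 and 227 bases before the start in Myl9, Cnn2, Myl6 and Vcl, and 82 and 62 bases before it in Srf. Acta2, which encodes smooth muscle alpha-actin, had no exact box in its window but had a pair of near matches with 1 letter off, at 84 and 34 bases before the start, at chr19:34255374-34255482 on the minus strand.
Acta2: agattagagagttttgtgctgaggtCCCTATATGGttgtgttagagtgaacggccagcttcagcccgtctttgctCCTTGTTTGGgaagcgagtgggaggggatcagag
A match is a description of these letters, and a window without one says only that the letters are not in that window.

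The files held 6691, 9034 and 11120 cell barcodes with 18584156, 27220670 and 30984706 UMIs in libraries 1, 2 and 3, and 1.15% to 1.93% of the barcodes of one library also occurred in another. After filters and removal of likely doublets, 24352 cells remained. Cells were placed in a class by summed UMIs of Krt5, Krt14 and Krt17 (basal), Csn3, Elf5, Kit and Aldh1a3 (luminal progenitor, LP) or Prlr, Areg, Pgr and Esr1 (hormone-responsive luminal, HR), where the top sum reached 5 UMIs and 3 times each other sum. This gave 7200 basal cells (1304, 3014 and 2882 in libraries 1, 2 and 3), 8091 LP cells and 2568 HR cells, and 6493 cells in no class. Basal cells made up 21.7, 36.4 and 28.6% of kept cells. The basal gate held the transcription factor gene Trp63 at 177 ± 18.7 counts per 1000000 UMIs (CPM; mean ± SD of 3 libraries) against 4.34 ± 2.60 in LP and 5.29 ± 3.83 in HR cells, and the CD49f gene Itga6 at 824 ± 75.1 against 152 ± 29.4 and 143 ± 35.0 CPM. Lgr5, a marker of a subset of basal cells, was at 159.6, 53.6 and 56.1 CPM in basal cells of libraries 1, 2 and 3, so library 1 stood apart. Median UMIs per cell were 2076, 2388 and 1807 in basal, 2830.0, 3844 and 3348 in LP and 3391, 3825 and 3332 in HR cells.

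Most of the contraction genes were concentrated in the basal class, with log2 fold changes against LP cells from 0.05 for Actn4 to 6.44 for Tagln. The summed UMIs of the 33 genes took a median 2.02, 2.74 and 2.80% of a basal cell's UMIs in libraries 1, 2 and 3, against 0.254, 0.348 and 0.327% in LP and 0.250, 0.316 and 0.288% in HR cells. The basal medians lay above the luminal ones in every library. Within the basal class the share was broad, from 0.691, 1.20 and 1.02% at the 5th percentile to 5.01, 4.86 and 5.09% at the 95th.

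**Figure D1:**
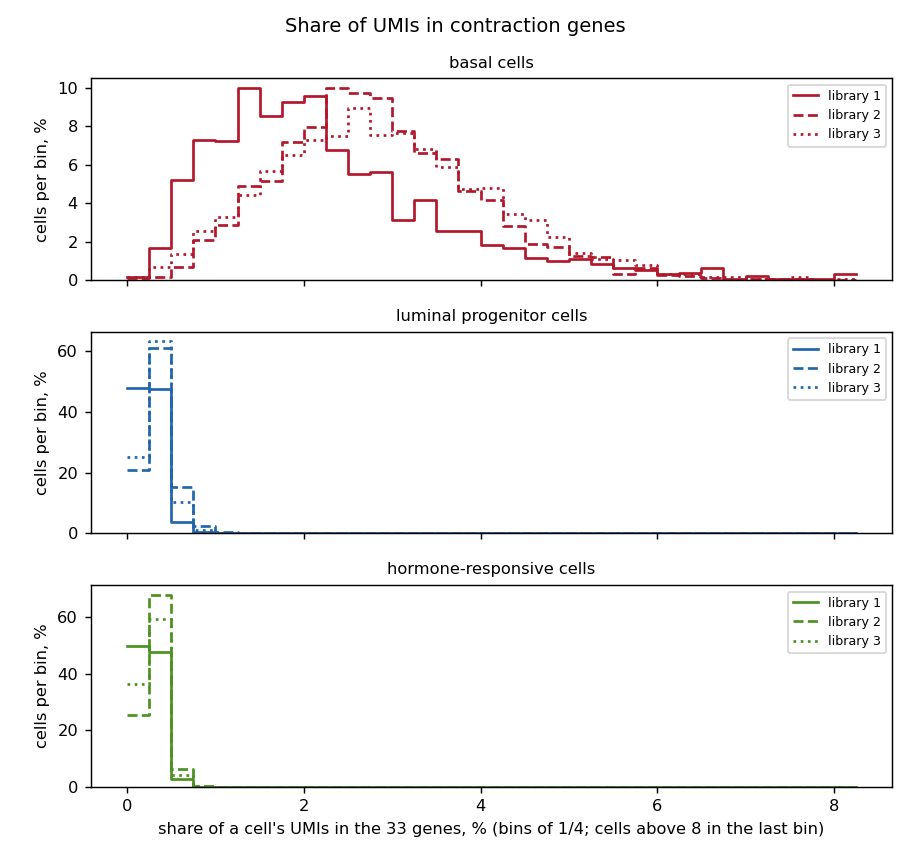
Share of each cell's UMIs taken by the 33 contraction genes (x axis, percent) against the percent of cells in each bin (y axis), by class and library. The basal medians of 2.02% to 2.80% lie to the right of the luminal medians of 0.25% to 0.35%, and the basal curves are wide.

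Of the 33 genes, 31 had counts enough to be tested and Des and Myocd did not. A gene was called where edgeR's quasi-likelihood test gave an adjusted p under 0.05 and the fold change was at least 2-fold (1 on the log2 scale). In basal against LP cells 28 of the 31 were higher, none was lower and 3 were not called, where 17.2% of 12393 tested genes were called higher and 14.5% lower. In basal against HR cells 30 were higher, none was lower and 1 was not called, with 20.7% of all genes higher and 15.5% lower. The median log2 fold change over the tested contraction genes was 3.72 against LP and 5.01 against HR, beside -0.08 and -0.01 over all tested genes. All 31 log2 fold changes were positive in both comparisons, so 0 genes were lower at any unadjusted p, and 0 were lower with DESeq2. These comparisons share the basal sums, so they are not independent of each other. The 33 genes were named as myoepithelial genes, with earlier results of these data known. A higher share of calls than over all genes could thus be foreseen, and it is no independent support.

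The muscle actins and the proteins that coat the thin filament differed widely between classes. Acta2, the main actin of smooth muscle, stood at 4998, 6947 and 7474 CPM in basal cells of libraries 1, 2 and 3, at 61.1, 209.7 and 130.2 CPM in LP and at 42.5, 206 and 128 CPM in HR cells. Basal and luminal levels did not overlap, and library 1 was the lowest in each class. The log2 fold change of Acta2 was 5.79 ± 0.69 against LP (± SD of the 3 within-library log2 ratios; adjusted p = 1.9e-06) and 6.04 ± 0.96 against HR (adjusted p = 1.8e-06). Actg2, the gamma actin of enteric smooth muscle, was at 163, 233 and 223 CPM in basal, 1.86, 8.96 and 4.12 CPM in LP and 0.802, 6.48 and 6.65 CPM in HR cells. Its levels again did not overlap between basal and luminal cells, with log2 fold changes of 5.53 ± 0.82 (adjusted p = 2.1e-06) and 5.51 ± 1.26 (adjusted p = 3.8e-06). Acta2 and Actg2 shared no stretch of 50 bases in the last 500 bases of their transcripts, the part that 3' reads cover.

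Tagln, which encodes the actin-binding protein transgelin, had the largest fold change of the group. It was at 2731, 1577 and 1429 CPM in basal cells, highest in library 1, and at 24.9, 21.1 and 17.8 CPM in LP and 15.2, 14.0 and 13.3 CPM in HR cells. The log2 fold change was 6.44 ± 0.35 against LP (adjusted p = 2.4e-07) and 7.11 ± 0.47 against HR (adjusted p = 1.5e-07). Cnn1, the calponin of differentiated smooth muscle, was nearly level across basal libraries at 901, 874 and 927 CPM, with 13.1, 30.6 and 16.0 CPM in LP and 10.4, 30.2 and 15.8 CPM in HR cells (log2 fold changes 5.61 ± 0.68 and 5.77 ± 0.84; adjusted p = 1.2e-06 and 1.3e-06). Its relative Cnn2, which also occurs outside muscle and whose promoter window holds a box, was at 193, 406 and 395 CPM in basal cells, lowest in library 1, and changed by 3.72 ± 0.24 on the log2 scale (adjusted p = 2.7e-07) and 3.48 ± 0.08 (adjusted p = 3.1e-07). Whether the fold changes of Cnn1 and Cnn2 differ was not tested.

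Among the tropomyosins, which wind along actin, the 3 genes moved by different amounts. Tpm2 was at 1995, 1837 and 2359 CPM in basal, 31.6, 65.9 and 50.1 CPM in LP and 38.5, 72.4 and 60.1 CPM in HR cells, without overlap (log2 fold change 5.46 ± 0.62 against LP, adjusted p = 6.2e-07). Tpm1 was at 1275, 1384 and 1281 CPM in basal, 169, 186 and 163 CPM in LP and 267, 248 and 269 CPM in HR cells (log2 fold change 2.92 ± 0.05, adjusted p = 3.2e-07). Tpm4, a cytoskeletal form of many cell types, was at 293, 258 and 219 CPM in basal, 79.0, 67.9 and 69.1 CPM in LP and 109, 118 and 111 CPM in HR cells (log2 fold change 1.82 ± 0.19, adjusted p = 6.6e-06). In LP cells Tpm4 was at 26.9, 26.3 and 31.5% of its basal level in libraries 1, 2 and 3 and Tpm2 at 1.58, 3.59 and 2.13%. Caldesmon (Cald1), which binds actin and calmodulin, was at 1281, 1125 and 1108 CPM in basal cells, 39.2, 91.6 and 62.0 CPM in LP and 12.8, 31.9 and 19.5 CPM in HR cells, higher in basal cells by 4.28 ± 0.75 and 5.95 ± 0.80 on the log2 scale (adjusted p = 4.4e-06 and 1.4e-06). Leiomodin 1 (Lmod1), which nucleates actin filaments, had log2 fold changes of 2.83 ± 0.29 and 5.47 ± 0.35, and smoothelin (Smtn), a cytoskeletal protein of contractile smooth muscle, 3.77 ± 0.46 and 3.87 ± 0.80 (adjusted p = 1.5e-06, 2.9e-07, 3.1e-06 and 3.6e-06).

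**Figure D2:**
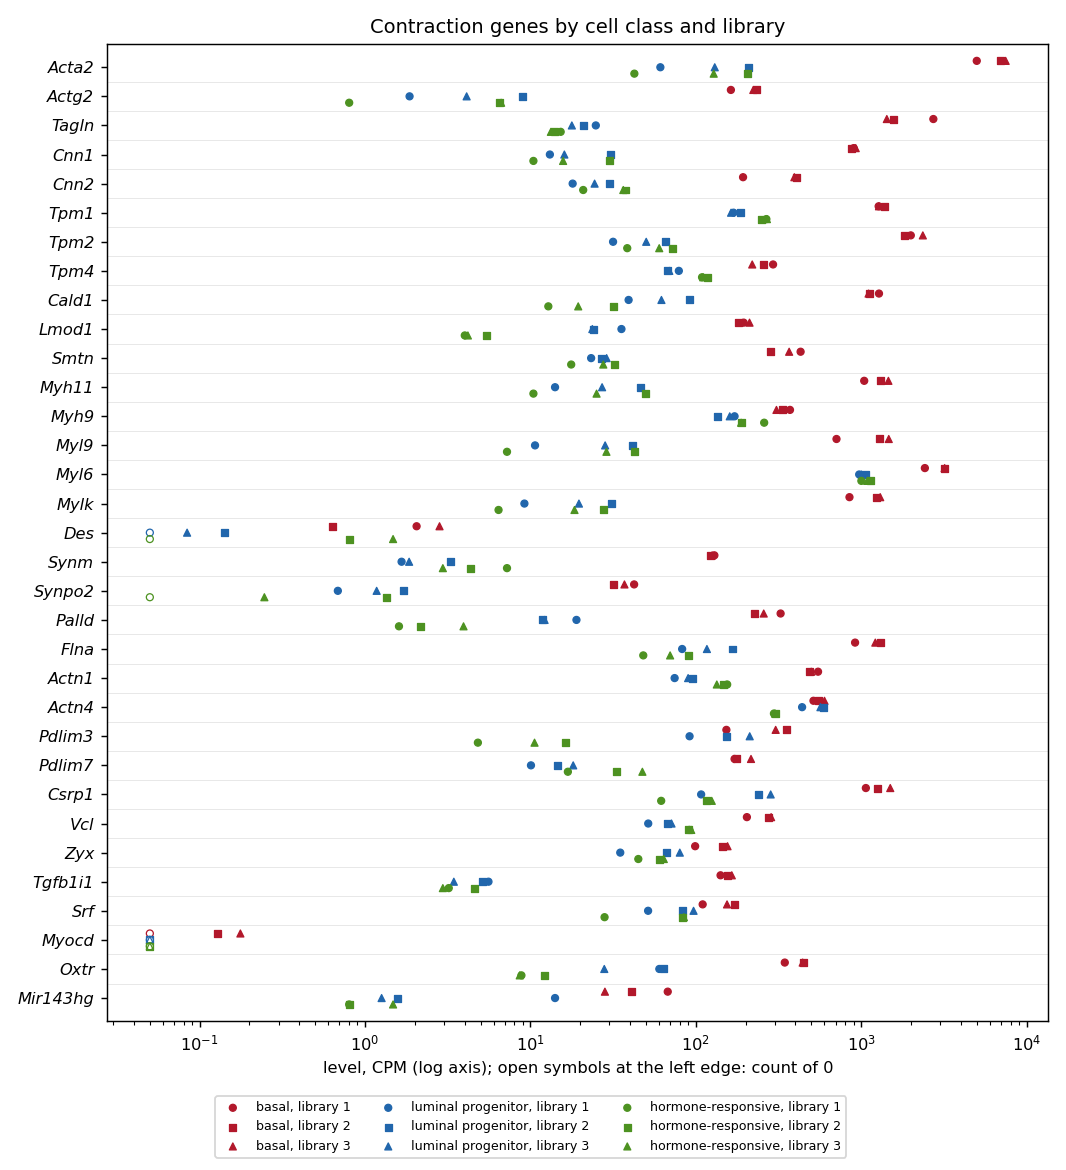
Level of each contraction gene (rows) in CPM on a log axis, by class (colour) and library (symbol), with open symbols at the left edge for a count of 0. Acta2 lies at 4998 to 7474 CPM in basal cells and at 42.5 to 209.7 CPM in luminal cells, whereas Actn4 runs together across basal and LP cells.

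Genes of the myosin motor and its kinase were higher in basal than LP cells by amounts that varied by gene. Myh11, the smooth-muscle myosin heavy chain, was at 1043, 1313 and 1461 CPM in basal, 14.1, 46.5 and 27.1 CPM in LP and 10.4, 49.9 and 25.1 CPM in HR cells. Its basal and luminal levels did not overlap (log2 fold changes 5.62 ± 0.72 and 5.77 ± 1.01, adjusted p = 2.1e-06 and 2.3e-06). Myh9, the non-muscle heavy chain IIA, was at 371, 332 and 307 CPM in basal, 172, 136 and 160.4 CPM in LP and 259, 188 and 188 CPM in HR cells. Its log2 fold change was 1.10 ± 0.21 against LP (adjusted p = 9.4e-05) and 0.81 ± 0.09 against HR, which passed the p threshold (adjusted p = 0.00053) but not the fold threshold. Of the light chains, Myl9, the regulatory light chain that the kinase phosphorylates, was at 709, 1294 and 1468 CPM in basal cells, lowest in library 1, with 10.7, 41.3 and 28.3 CPM in LP and 7.22, 42.4 and 28.8 CPM in HR cells (log2 fold changes 5.58 ± 0.56 and 5.71 ± 0.88, adjusted p = 8.8e-07 and 1.1e-06). Myl6, the essential light chain shared with non-muscle cells, was at 2427, 3169 and 3196 CPM in basal, 973, 1065 and 1005 CPM in LP and 1003, 1145 and 1088 CPM in HR cells (log2 fold change 1.51 ± 0.12 against LP, adjusted p = 5.5e-06). A share of 0.222% of the 50-base stretches at the 3' end of Myl6 also occurred in another gene, Gm8894. Mylk, the myosin light chain kinase that starts the contraction, was at 849.6, 1245 and 1303 CPM in basal, 9.20, 31.0 and 19.7 CPM in LP and 6.42, 27.5 and 18.5 CPM in HR cells. This put Mylk among the widest differences, at 5.97 ± 0.62 and 6.22 ± 0.81 on the log2 scale (adjusted p = 6.4e-07 and 7.3e-07).

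The intermediate filament and scaffold genes varied by gene. Des, which encodes desmin, the muscle intermediate filament protein, was close to absent: 6, 5 and 16 UMIs in all basal cells of libraries 1, 2 and 3, or 2.05, 0.638 and 2.82 CPM. Synm, the intermediate filament protein synemin that can pair with desmin or vimentin, was at 129.5, 123 and 125 CPM in basal cells, the smallest ratio of highest to lowest library among the 31 tested genes. Synm was at 1.66, 3.27 and 1.85 CPM in LP and 7.22, 4.32 and 2.96 CPM in HR cells (log2 fold changes 5.83 ± 0.51 and 5.01 ± 0.53, adjusted p = 4.2e-07 and 1.2e-06). Synpo2, the Z-band and dense-body protein myopodin, was at 42.4, 31.7 and 37.0 CPM in basal and 0.685, 1.71 and 1.18 CPM in LP cells, and its log2 fold change was 4.97 ± 0.75 (adjusted p = 5.5e-06). Synpo2 had no UMI in HR cells of library 1. The actin scaffold palladin (Palld) was higher in basal than LP cells by 4.24 ± 0.08 and than HR cells by 6.59 ± 0.78 on the log2 scale (adjusted p = 3.9e-07 and 2.3e-07).

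Crosslinkers and adhesion plaque genes ran from no call to a large difference against LP cells. Filamin A (Flna), which crosslinks actin and binds integrins, was at 919, 1316 and 1217 CPM in basal and 82.7, 167 and 117 CPM in LP cells (log2 fold change 3.27 ± 0.28, adjusted p = 4.7e-07). Tgfb1i1, the focal adhesion adaptor Hic-5, had the largest change of the group, at 141, 156 and 165 CPM in basal, 5.58, 5.12 and 3.44 CPM in LP and 3.21, 4.59 and 2.96 CPM in HR cells (log2 fold changes 5.04 ± 0.39 and 5.51 ± 0.36, adjusted p = 3e-07 and 3.7e-07). Of the actinins, Actn1 had a log2 fold change of 2.55 ± 0.33 against LP (adjusted p = 1.7e-06), while Actn4 was at 515, 551 and 600.0 CPM in basal and 439, 594 and 567 CPM in LP cells, overlapping, with a log2 fold change of 0.05 ± 0.21 (adjusted p = 0.731). Against HR cells, the log2 fold change of Actn4 was 1.01 (adjusted p = 0.00015), and 0.89 when scaled by total counts alone, under the fold threshold. Of the LIM-domain genes, Csrp1 was higher in basal than LP cells by 2.70 ± 0.58 and Pdlim7 by 3.74 ± 0.34 on the log2 scale (adjusted p = 9.4e-06 and 1.3e-06). Vinculin (Vcl), whose window holds a box, was higher by 1.99 ± 0.05 on the log2 scale (adjusted p = 2.6e-06) and zyxin (Zyx), which senses strain on actin, by 1.17 ± 0.34 (adjusted p = 0.00021). Pdlim3, an actinin-binding LIM protein of muscle, departed from the rest. It was at 153, 351 and 304 CPM in basal, 91.7, 152 and 212 CPM in LP and 4.81, 16.2 and 10.6 CPM in HR cells. So basal and LP levels of Pdlim3 overlapped across libraries, though basal was above LP within each library, and HR levels lay far below. Its log2 fold change of 0.79 ± 0.37 against LP (adjusted p = 0.00602) was under the fold threshold, and it was 1.03 without library 3 (adjusted p = 0.0109).

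Of the regulators, the SRF gene was found in all 3 classes and its cofactor gene Myocd in hardly any cell. Srf was at 110.0, 171 and 154 CPM in basal, 51.5, 83.4 and 96.9 CPM in LP and 28.1, 82.6 and 84.7 CPM in HR cells. Its log2 fold change of 0.93 ± 0.29 against LP (adjusted p = 0.00339) was under the fold threshold, and it was 1.33 ± 0.64 against HR (adjusted p = 0.00053). The value against LP was past the threshold without library 3 (1.13, adjusted p = 0.0125), with DESeq2 (1.02) and with sums thinned to equal totals (1.13). Myocd, the muscle cofactor of SRF, had 0, 1 and 1 UMIs in basal cells and none in either luminal class, which allows up to 0.103 CPM in LP and 0.333 CPM in HR cells (3 counts over the 3 libraries, counting error only). Oxtr, the receptor for oxytocin, was at 345, 445 and 443 CPM in basal, 60.2, 64.2 and 28.0 CPM in LP and 8.82, 12.1 and 8.62 CPM in HR cells. The classes did not overlap at any step for Oxtr, and basal was the highest and HR the lowest (3.08 ± 0.72 and 5.49 ± 0.26 on the log2 scale, adjusted p = 9.7e-06 and 1.2e-06). Mir143hg, the host transcript of the miR-143 and miR-145 microRNAs of smooth muscle, was at 67.7, 40.8 and 28.2 CPM in basal cells, highest in library 1, and at 14.1, 1.56 and 1.26 CPM in LP cells, where library 1 also stood far above the others. Its log2 fold change against LP was 3.43 ± 1.15 (adjusted p = 0.00017).

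Luminal cells also held UMIs of nearly every contraction gene. In droplet data free RNA from lysed cells adds UMIs of abundant transcripts to other cells, so the luminal share of the basal level was compared across genes within each library. Acta2 was at 1.22, 3.02 and 1.74% of its basal level in LP cells of libraries 1, 2 and 3 and at 0.851, 2.97 and 1.72% in HR cells. Of the 31 tested genes 10 were under 4% in LP cells of every library, namely Acta2, Actg2, Tagln, Cnn1, Tpm2, Myh11, Myl9, Mylk, Synm and Tgfb1i1. In 9 of those 10, all but Tgfb1i1, the LP share was lowest in library 1 and highest in library 2, the same order as the share of basal cells in the library. In HR cells 13 genes were under 4% in every library and 7 of them followed that order, while Actg2, Tagln, Lmod1, Palld, Tgfb1i1 and Oxtr did not. Over all 31 genes the order held for 16 in LP and 12 in HR cells. The part of free RNA in these shares was not tested. Another 6 were above 30% in LP cells of every library, namely Myh9, Myl6, Actn4, Pdlim3, Zyx and Srf. Pdlim3 was at 59.9, 43.4 and 69.7% in LP cells but at 3.14, 4.61 and 3.48% in HR cells. For Oxtr these values were 17.4, 14.4 and 6.32% and 2.56, 2.73 and 1.95%.

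**Figure D3:**
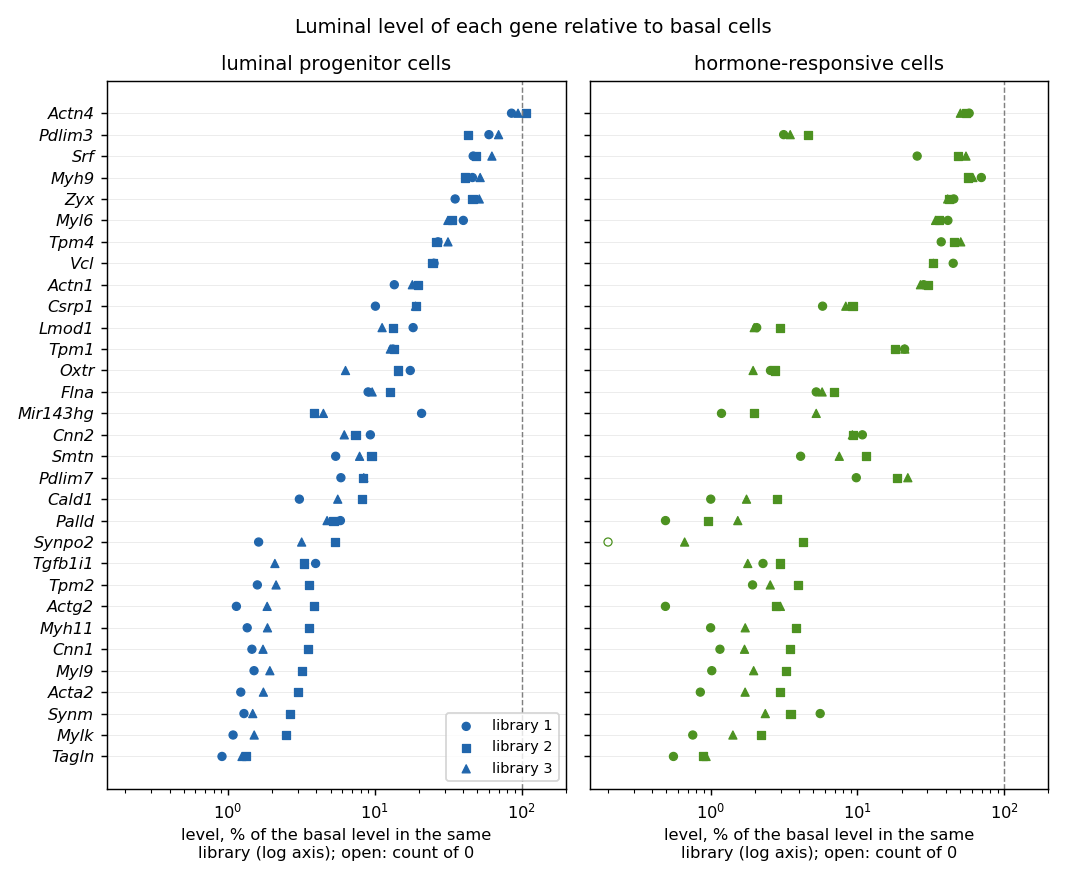
Luminal level of each contraction gene as percent of its basal level in the same library (log axis), for LP and HR cells. Acta2, Tagln and Mylk lie under 4% in every library, while Actn4, Myl6 and Myh9 lie above 30%.

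By share of cells, a UMI of Acta2 was found in 91.5, 98.8 and 97.3% of basal and 14.7, 50.7 and 35.3% of LP cells at full depth, and in 85.5, 96.9 and 96.0% and 4.94, 17.6 and 11.9% after each cell was thinned to 1000 UMIs. For Oxtr the thinned shares were 23.2, 34.1 and 33.9% of basal, 5.98, 5.78 and 2.70% of LP and 0.292, 1.61 and 0.826% of HR cells, and the unthinned shares 39.3, 58.8 and 51.8%, 15.3, 17.9 and 8.83% and 2.92, 4.30 and 2.61%. In each library and at both depths, the basal share was above the luminal shares printed here.

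Between LP and HR cells 7 of the 31 genes were called, 6 higher in LP (background 14.2%) and 1 lower (background 10.4%). By log2 fold change the 6 were Pdlim3 (3.98 ± 0.63), Lmod1 (2.65 ± 0.50), Oxtr (2.42 ± 0.51), Palld (2.35 ± 0.86), Cald1 (1.67 ± 0.12) and Csrp1 (1.15 ± 0.21), with adjusted p of 3.1e-06, 2e-05, 0.00017, 0.00011, 0.00174 and 0.00197. Palld, for example, was at 19.0, 11.8 and 12.2 CPM in LP and 1.60, 2.16 and 3.94 CPM in HR cells, and Lmod1 at 35.5, 24.0 and 23.7 CPM and 4.01, 5.40 and 4.19 CPM. For both, every LP library was above every HR library. Pdlim7 was lower in LP cells (-1.07 ± 0.32, adjusted p = 0.0035), a call that was lost without library 3 (-0.93, adjusted p = 0.0538), with no doublet removal (-0.95) and with sums thinned to equal totals (-0.84). The remaining 24, Acta2 (0.25 ± 0.29) and Myh11 (0.14 ± 0.29) among them, were not called.

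The libraries differed in the level of these genes within basal cells, which with 1 group is a description of the libraries. Over the 31 genes with enough counts the ratio of the highest to the lowest library ran from 1.05 for Synm to 2.40 for Mir143hg, with a median of 1.40. Library 1 was the lowest in 18 of the 31, and library 3 the highest in 14. Tagln, Smtn and Palld were highest in library 1, at 2731, 1577 and 1429 CPM for Tagln, 430.3, 282 and 367 CPM for Smtn and 326, 226 and 257 CPM for Palld. Pdlim3, Cnn2 and Myl9 were lowest there, with a ratio of highest to lowest library of 2.30 for Pdlim3 and 2.07 for Myl9. So the direction between libraries differed by gene. Summed fibroblast markers moved with the libraries as well, at 61.5, 218 and 230.2 CPM in basal cells (6 of 6 markers above 0), as did the Lgr5 level given above; their part in these differences was not tested.

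Among basal cells of 1 library, contraction genes varied together to a degree that differed by gene. Cells were thinned to 1000 UMIs (1273, 2985 and 2793 cells), and the 29 genes found in at least 5% of cells of every library were each correlated, as log2(count + 1), with the sum of the other 28. Des, Myocd, Synpo2 and Mir143hg were too sparse. The median correlation was 0.19, where 2385 other genes had a median of 0.0012 with the sum of all 29 and a 5th to 95th percentile of -0.07 to 0.07. The other genes passed the same 5% floor but were not matched to the 29 in level. The part of level in this gap was not tested. These are descriptions across cells that share a library and a fixed UMI total.

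Acta2 followed the rest most closely, at r = 0.70, 0.55 and 0.62 in libraries 1, 2 and 3. Tpm2 (0.52, 0.38 and 0.44), Tagln (0.53, 0.38 and 0.40), Myh11 (0.44, 0.38 and 0.40), Cnn1 (0.46, 0.34 and 0.39) and Myl9 (0.44, 0.36 and 0.35) came next. Myl6 was seventh, at 0.40, 0.31 and 0.36. The groups by role did not stay together in this order, since the thin-filament genes Lmod1 (0.14, 0.14 and 0.10), Smtn (0.10, 0.07 and 0.07) and Tpm4 were in its lower part. Lmod1 and Tpm4 were also found in few cells, 18.7 and 19.1% of thinned basal cells of library 3. The lowest values were those of Myh9 at 0.09, 0.05 and 0.06, Tpm4 at 0.10, 0.04 and 0.05 and Pdlim7 at 0.03, 0.07 and 0.07. The part of detection in this order was not tested. The genes from Acta2 to Myl6 were each found in 54.4% (Cnn1) or more of thinned basal cells of library 3. Actg2, found in 15.3% of thinned basal cells of library 3, had r = 0.32, 0.17 and 0.24 and Synm, found in 10.4%, 0.25, 0.20 and 0.19. Smtn, found in 31.5%, and Myh9, found in 25.4%, had the lower values above. Oxtr lay in the middle at 0.30, 0.12 and 0.15, highest in library 1.

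When cells of each library were divided into 4 equal groups by the sum of the other genes, Acta2 averaged 2918 CPM in the lowest group of cells and 9985 CPM in the highest. Synm averaged 32.5 CPM in the lowest group of cells and 234 CPM in the highest, and Actg2 52.6 CPM in the lowest group of cells and 347 CPM in the highest. By contrast Myh9 averaged 274 CPM in the lowest group of cells and 376 CPM in the highest, and Smtn 312 CPM in the lowest group of cells and 451 CPM in the highest. The groups of high and low sum thus differed several times over in Acta2, Synm and Actg2 and little in Myh9 and Smtn. A low correlation was not always a small change. Lmod1 rose 2.16-fold between these groups and Myl6 1.95-fold, though Myl6 had the higher correlation. Acta2 with Tpm2 (0.50, 0.28 and 0.38), Acta2 with Tagln (0.49, 0.31 and 0.34) and Acta2 with Myl9 (0.43, 0.32 and 0.35) were the closest of the 406 pairs. The median pair was at 0.046, 324 pairs were above 0 in every library, 92 had a mean of at least 0.1 and 3 were below 0 in every library. These values belong to a depth of 1000 UMIs: the median pair was 0.0775 at 2000 UMIs and 0.0955 with no thinning.

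**Figure D4:**
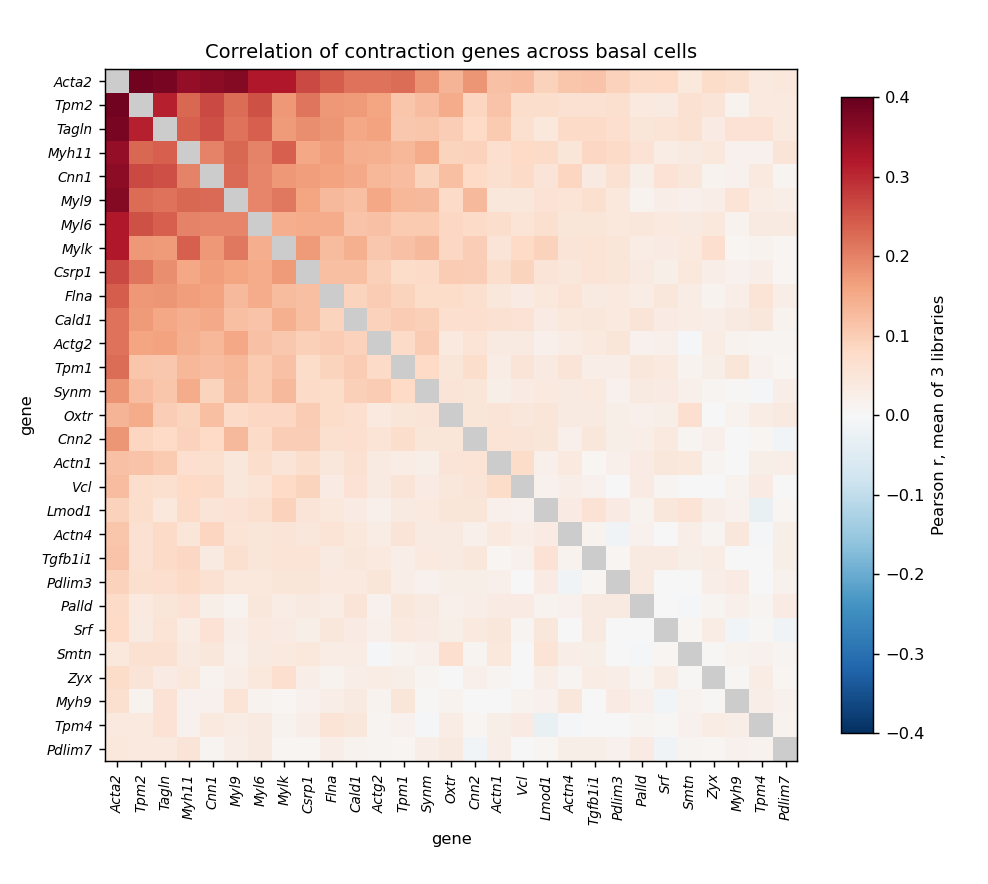
Pearson correlation of each pair of the 29 contraction genes (rows and columns) across basal cells thinned to 1000 UMIs, mean of 3 libraries as colour, ordered by correlation with the sum of the others. The strongest pairs, up to 0.39 for Acta2 with Tpm2, lie in the top left corner, and the rows of Myh9, Tpm4 and Pdlim7 are near 0.

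The sum of the 29 genes was also set beside other properties of the cell. Its correlation with log2 UMIs before thinning was 0.35, -0.03 and 0.13 in libraries 1, 2 and 3, with the summed gate keratins -0.19, 0.02 and -0.01, with the mitochondrial percent 0.02, -0.11 and -0.11, and with summed immediate-early genes -0.05, 0.09 and 0.02. Library 1 had the largest values for depth and for keratins and also the highest median member correlation, 0.25 against 0.16 and 0.18, and the part of depth in this was not tested.

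Outside the 33 genes, those that followed the sum most closely in every library were named by rank of the weakest of the 3 correlations. Postn, the matrix protein periostin, led at 0.31, 0.29 and 0.32, going from 536 to 1622 CPM between the lowest and highest of the 4 groups of cells. Behind it were the actin genes Dstn (0.29, 0.24 and 0.21), which encodes the depolymerising factor destrin, Actb (0.44, 0.19 and 0.25) and Tmsb4x (0.34, 0.17 and 0.21), which encodes the actin-sequestering thymosin beta-4. Ctgf (0.25, 0.16 and 0.19) and Cyr61 (0.19, 0.14 and 0.15), matricellular genes known as targets of YAP and SRF, the basement membrane collagen gene Col4a1 (0.25, 0.15 and 0.15), Il17b, Spon2 and 1600014C10Rik completed the 10. Ctgf went from 158 to 590.3 CPM and Col4a1 from 398 to 803 CPM. The 10 most opposed were Chil1, Slpi, Neat1, Mt1, Rps24, Mybph, Adamts1, Ddit4, Rps28 and Jmjd1c. Chil1, a chitinase-like secreted protein gene, was at -0.28, -0.19 and -0.34 and fell from 1186 to 296 CPM, and Slpi, a secreted protease inhibitor gene, was at -0.30, -0.16 and -0.16 and fell from 5399 to 1956 CPM. Mt1, a metallothionein gene, was at -0.36, -0.14 and -0.12, most strongly in library 1.

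Pericytes and vascular smooth muscle use many of the same genes, so cells with UMIs of at least 3 of 10 pericyte markers were set beside the basal cells. There were 52 such cells (7, 19 and 26 in the 3 libraries, 103545 UMIs), of which 3 were in the basal gate and 45 in no class. With so few cells no test was made and intervals are exact Poisson intervals that cover counting error only. For 5 genes the interval lay above every basal library, namely Lmod1, Myl9, Des, Synpo2 and Myocd. Des was at 464 CPM (95% interval 342 to 615) against 1.84 ± 1.11 CPM in basal cells, Synpo2 at 299 CPM (95% interval 203 to 425) against 37.0 ± 5.36 CPM, and Myl9 at 2318 CPM (95% interval 2034 to 2630.4) against 1157 ± 397 CPM. Myocd had 3 UMIs in these cells against 2 in all basal cells. For 9 it lay below every basal library, namely Acta2, Actg2, Tagln, Cnn1, Smtn, Synm, Pdlim7, Csrp1 and Oxtr. Oxtr was at 38.6 CPM (95% interval 10.5 to 98.9) against 411 ± 57.0 CPM, Cnn1 at 183 CPM (95% interval 110.5 to 287) against 901 ± 26.4 CPM, and Smtn at 96.6 CPM (95% interval 46.3 to 178) against 359.6 ± 74.6 CPM. For the other 19 genes the interval overlapped the range of the basal libraries. In the basal class the 10 pericyte markers summed to 34.5, 42.9 and 47.4 CPM with Higd1b at 0. The LP sums were higher, at 99.6, 83.1 and 91.3 CPM, through Notch3 alone (mean 84.7 CPM in LP and 5.85 CPM in basal cells). Gucy1a3 (20.7 against 3.66 CPM), Pdgfrb (7.61 against 0.673 CPM), Rgs5 (3.51 against 1.54 CPM) and Cspg4 (2.82 against 0.0606 CPM) had higher means in basal than LP cells. So did Kcnj8, Abcc9 and Ndufa4l2 at low levels. Higd1b (0 against 0.0474 CPM) and Rgs4 (0.272 against 0.282 CPM) did not.

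**Figure D5:**
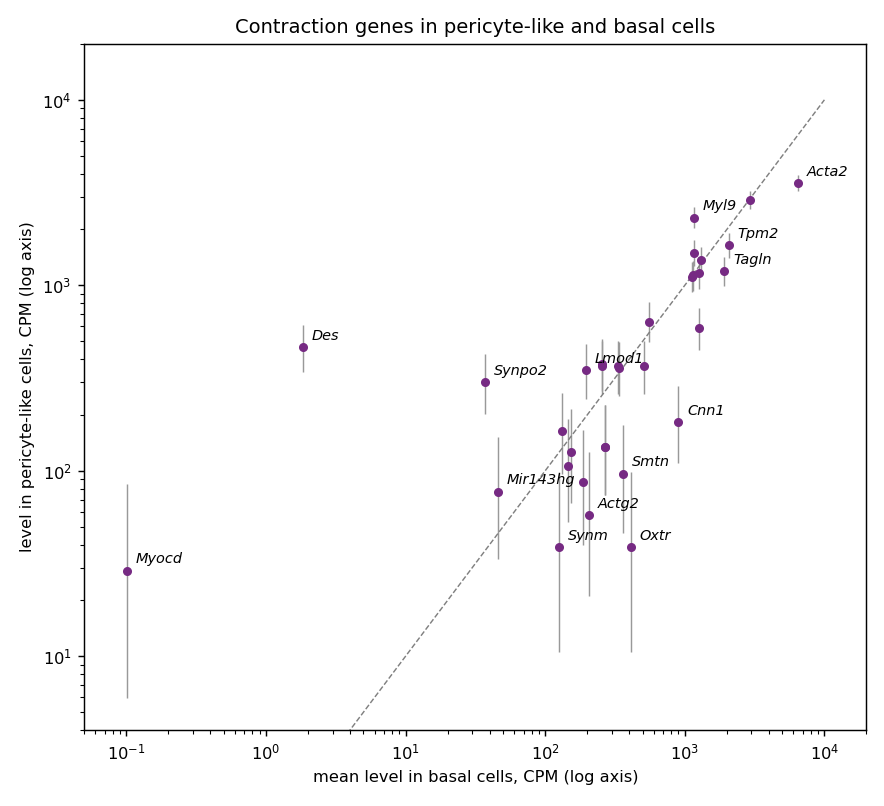
Level of each contraction gene in 52 pericyte-like cells (y axis, CPM, with 95% Poisson intervals) against its mean level in basal cells (x axis, CPM), both on log axes, with the line of equal level. Des at 463.6 CPM lies far above the line and Oxtr at 38.6 CPM far below it.

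Other genes of the contraction pathway were taken whole from lists by function. They are described by counts beside the background of 17.2% higher and 14.5% lower in basal against LP cells. The lists were chosen with earlier results of these data known, so these counts are no independent support. Of 21 tested genes of the myosin phosphatase and kinases 7 were higher, 1 lower and 13 not called, with a median log2 fold change of 0.63. Ppp1r14a, the phosphatase inhibitor CPI-17, led with 49.3 CPM in basal and 2.48 CPM in luminal progenitor cells (log2 fold change 4.31 ± 0.19, adjusted p = 5.9e-07). Ppp1cb, a catalytic subunit of that phosphatase, was lower (log2 fold change -1.15 ± 0.53, adjusted p = 0.00069), and was not called without library 2 or without library 3. Of 22 calcium handling and Gq signalling genes 5 were higher and 2 lower, and the median was 0.35. Without library 3, or with sums thinned to equal totals, 1 was lower. Cacna1c, the L-type calcium channel of smooth muscle, was the furthest above LP cells (log2 fold change 4.16 ± 0.20, adjusted p = 5.9e-06) and the calcium pump gene Atp2a3 the furthest below, at 0.128 CPM in basal and 1.77 CPM in luminal progenitor cells (log2 fold change -3.30 ± 0.87, adjusted p = 0.0112). Of 11 contractile receptors other than Oxtr 3 were higher and 2 lower, median -0.04. With a stricter class gate, or with sums thinned to equal totals, 1 was higher. The receptors were led by the endothelin receptor gene Ednrb, which was low throughout at 2.60 CPM in basal and 0.231 CPM in luminal progenitor cells (log2 fold change 3.43 ± 0.10, adjusted p = 0.00164). The sphingosine phosphate receptor gene S1pr2 was the lowest (log2 fold change -2.00 ± 0.47, adjusted p = 4.9e-05).

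Of 23 partners and regulators of SRF 10 were higher and 4 lower (1 with sums thinned to equal totals), median 0.85. Trp63 had the largest difference of this list (log2 fold change 5.45 ± 0.74, adjusted p = 1.7e-06). It is a basal lineage factor used above to check the basal gate, so its place was known beforehand and says nothing about SRF. Mef2c, a muscle transcription factor, came just behind (log2 fold change 5.41 ± 0.27, adjusted p = 4e-07). Notch3, a receptor of the Notch pathway that is also among the pericyte markers above, was the furthest below (log2 fold change -3.92 ± 0.22, adjusted p = 1.3e-06). The myocardin-related factor genes, chosen for mention after their values were seen, went opposite ways, Mkl1 higher (log2 fold change 1.18 ± 0.28, adjusted p = 0.00082) and Mkl2 lower (log2 fold change -1.19 ± 0.26, adjusted p = 0.0002). Of 42 other smooth-muscle and myoepithelial cytoskeletal genes 25 were higher, 3 lower (5 without library 1) and 14 not called, median 1.45. Kcnmb1, a subunit of the calcium-activated potassium channel of smooth muscle, was the furthest above LP cells (log2 fold change 5.88 ± 0.86, adjusted p = 6.1e-06). The Z-band gene Ldb3 was the furthest below, at 0.457 CPM in basal and 29.0 CPM in luminal progenitor cells (log2 fold change -6.15 ± 0.82, adjusted p = 1.3e-06). Of 19 immediate-early genes, many of them targets of SRF, 4 were higher and 0 lower, median 0.82, and Egr2 led (log2 fold change 3.19 ± 0.46, adjusted p = 3.6e-06). Of them 1, Jund, was lower at an unadjusted p under 0.05, and 0 were called lower with DESeq2. The 4 became 2 without library 1, 7 without library 3, 7 with DESeq2 and 2 with no library term, and 1 was called lower without library 1. The summed immediate-early genes were at 22881, 23613 and 28262 CPM in basal and 11001, 23048 and 31341 CPM in LP cells of libraries 1, 2 and 3. In HR cells they were at 5006, 23521 and 26635 CPM. Library 1 was thus low in both luminal classes. The part of this in the Srf comparisons with LP and HR cells was not tested.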

How the data were processed

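Per the labels, live epithelial cells were sorted and run on 3' droplet chemistry version 2, and the authors deposited 1 table of UMI counts per library, made with Cell Ranger 2.1.0 on mm10 per the submitters' processing notes. Cells with at least 500 genes and under 10% mitochondrial UMIs were kept, and the highest Scrublet scores (scanpy 1.11.5) were removed at 0.8% per 1000 barcodes (340, 646 and 982 cells). Counts were summed over cells of a library and class (9 sums, the smallest of 1246609 UMIs) and fitted in edgeR 4.0.16 (R 4.3.3; quasi-likelihood test, TMM scaling, filterByExpr, class and library as terms, the 11 gate genes left untested, Benjamini-Hochberg over 12393 genes). The script was tested on simulated data for basal against LP cells with 12277 genes: 99% of genes changed by 1.5 and 100% of those changed by 2 on the log2 scale were recovered, with 0 false calls. The simulated sums had a shared mean profile, a fixed spread for all genes and no library differences, with 100 genes changed at each size. These rates therefore check the code and do not carry over to the real libraries.

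CPM are counts per 1000000 UMIs of the sum. Library is a block because the 3 classes come from 1 suspension; deviations of same-library sums correlated at 0.217 to 0.455, of different libraries at -0.382 to 0.0814, values that are tied to each other because deviations sum to 0. The members and lists were chosen with earlier results of these data known. All 33 members are given; from each list the called gene with the largest change each way, and in basal cells the 10 genes highest and lowest by their weakest correlation. Alternatives were DESeq2 1.42.0, another gate, filter, depth and scaling, doublets kept, cells with other markers left out, and each library left out. Gene models were GENCODE M21.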

Additional observations from a re-analysis of the deposited data

How the results depend on the processing

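The counts of called genes moved little: over 11 alternatives 28 to 30 contraction genes were higher in basal than LP cells, 29 to 30 higher than in HR cells, and 6 to 9 were called between LP and HR cells. With no replicate block (library term left out) the counts were 28, 30 and 7, and 62 of the other pathway genes in place of 66. Of 1023 single-gene values, 1011 kept their side of the threshold, 4 fell under it and 8 passed it. The sign changed in 7 values of 5 uncalled differences, Actn4 between basal and LP cells and Actg2, Smtn, Myl9 and Myl6 between LP and HR cells, and in 0 values of called ones. The strength of co-variation depended on depth: the median pair of 0.0464 became 0.0775 with cells thinned to 2000 UMIs and 0.0955 with no thinning, and the median correlation with the other genes of 0.189 became 0.261 and 0.293. Leaving out each library gave 0.0423 to 0.0505 and 0.148 to 0.221. Of the 10 genes with the highest correlation, 9 or 10 were shared with the main setting in every alternative, Acta2 first in each. Scaling by total counts in place of TMM, chosen after seeing the data, moved the median over all genes against HR by 0.12 for basal and 0.13 for LP cells, and the share of calls that were higher from 57.2% to 51.3% and from 57.6% to 50.3%. Synpo2, Mir143hg, Des and Myocd were too sparse to be described per cell.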

Other observations

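Among the 6493 cells in no class, 418, 1382 and 1185 in libraries 1, 2 and 3 (33.4%, 54.7% and 43.6% of that library's cells in no class) had a contraction-gene share at or above the basal 5th percentile of the library. Over all cells in no class the median share was 0.382%, 1.63% and 0.618%, so library 2 was the highest. Cells in no class enter no comparison between classes, and 45 of them are among the 52 pericyte-like cells.

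Of the 42 tested cytoskeletal genes listed beside the contraction genes, 25 were higher and 3 lower in basal than LP cells. Besides Ldb3, the lower genes were Sorbs2, at 7.28 CPM in basal and 106 CPM in luminal progenitor cells (log2 fold change -3.88 ± 0.19, adjusted p = 3.1e-07), and the non-muscle heavy chain gene Myh14, at 25.1 CPM in basal and 64.9 CPM in luminal progenitor cells (log2 fold change -1.38 ± 0.46, adjusted p = 0.00026). Its relative Myh10 was on the basal side, at 65.0 CPM in basal and 4.48 CPM in luminal progenitor cells (log2 fold change 3.88 ± 0.35, adjusted p = 1.2e-06). The caveolar genes Cav1 (log2 fold change 5.04 ± 0.26, adjusted p = 4.7e-07) and Ptrf (log2 fold change 4.52 ± 0.23, adjusted p = 2.7e-07) were basal. These genes were chosen after their values were seen.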
